A study of Mus musculus with 196 samples.

Results

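Transcripts of 10 cohesin genes were followed in mouse PGCLCs (primordial germ cell-like cells induced from pluripotent stem cells) and in germ cells taken from embryos. The genes were named by role out of 25706 endogenous genes in the table. Here 5 are grouped as meiotic (Rec8, Rad21l, Stag3, Smc1b and Sgol2) and 5 as mitotic partners (Rad21, Stag1, Stag2, Smc1a and Smc3). All 10 had a row. The study measured 3′ end RNA tags in cultured PGCLCs with and without the transcriptional regulator ZGLP1, the meiotic regulator STRA8, the signalling protein BMP2 and retinoic acid (RA). For the cohesin genes these groups ask how far each condition shifts the tags from the mitotic to the meiotic subunits.

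All PGCLC lines are on a background labelled 129S1:C57BL/6=1:1 and carry the Prdm1-mVenus and Dppa3-ECFP reporters. The parental line H18 (27 libraries) received BMP2, RA, or BMP2 plus RA (labelled B2RA). Clone A2 (64 libraries) carries a piggyBac tetO transgene for the Zglp1 coding sequence followed by IRES-mCherry, and an EF1a-driven rtTA. It was cultured as control, with doxycycline (Dox), with Dox and RA (DoxRA), or with media labelled SerumMinus, SerumMinusWIN and BMS, the last 2 also with Dox. Clones E5 and G10 (26 libraries each) are Zglp1-/-, and clones B6 and F6 (16 each) are Stra8-/-. Clone A11 (16 libraries) carries the transgene and is Stra8-/-. A2 and A11 are each a single clone, so clone and genotype cannot be told apart in them. Cells were sorted as SC(+) on culture days 3 to 9 after growth on m220 feeder cells, and as BV(+) at the start of culture. Embryonic day (E) 9.5 germ cells (Dppa3-EGFP) and E14.5 and E15.5 oocytes (Ddx4-RFP), from ICR:C57BL/6=1:1 embryos, gave 1 library each. Doses of the agents are not given in the sources used here.

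Cohesin is a ring that holds sister chromatids together. It is built from a pair of SMC proteins, a kleisin that closes the ring, and a STAG protein bound to the kleisin. RAD21 is the kleisin of mitosis, whereas germ cells entering meiosis load rings closed by REC8 or RAD21L, with STAG3 in place of STAG1 or STAG2 and SMC1B in place of SMC1A. SMC3 is common to both kinds of ring, and shugoshin 2, the product of Sgol2, shields REC8 at centromeres from cleavage in the first meiotic division.

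The stretch just upstream of the transcription start is shown for the 4 meiotic ring genes because the results turn on them. Each is the 250 bases before the RefSeq start (GRCm38.p6, 5′ to 3′ on the gene's strand), with capitals on any match to 4 motifs searched on both strands: GCGGGA (an E2F-type core), CACGTG (an E-box), AGATAA (of the GATA type) and the 8-letter CNCCTCAG. The windows lie at chr14:55617916-55618165 (plus strand, Rec8), chr2:151668534-151668783 (minus, Rad21l), chr5:138280259-138280508 (plus, Stag3) and chr15:85131958-85132207 (minus, Smc1b).
Rec8: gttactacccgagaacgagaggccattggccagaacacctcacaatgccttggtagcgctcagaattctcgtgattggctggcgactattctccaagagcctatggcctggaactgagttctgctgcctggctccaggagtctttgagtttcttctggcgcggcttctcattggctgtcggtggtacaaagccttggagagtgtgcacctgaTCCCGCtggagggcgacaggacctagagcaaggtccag
Rad21l: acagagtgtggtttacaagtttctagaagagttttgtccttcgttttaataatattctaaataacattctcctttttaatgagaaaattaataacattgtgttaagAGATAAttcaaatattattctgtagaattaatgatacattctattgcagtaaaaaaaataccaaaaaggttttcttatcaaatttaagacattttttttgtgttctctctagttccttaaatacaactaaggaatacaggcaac
Stag3: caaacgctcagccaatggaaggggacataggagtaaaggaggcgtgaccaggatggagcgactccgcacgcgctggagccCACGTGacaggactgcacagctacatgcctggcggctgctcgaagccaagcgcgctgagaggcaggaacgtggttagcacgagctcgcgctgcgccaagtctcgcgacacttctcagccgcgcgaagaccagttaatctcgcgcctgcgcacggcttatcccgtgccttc
Smc1b: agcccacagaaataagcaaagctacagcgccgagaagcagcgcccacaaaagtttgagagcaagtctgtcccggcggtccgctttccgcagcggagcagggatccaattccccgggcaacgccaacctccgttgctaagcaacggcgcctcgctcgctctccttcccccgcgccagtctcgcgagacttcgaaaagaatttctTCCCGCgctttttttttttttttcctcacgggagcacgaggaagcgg

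GCGGGA stood on the reverse strand 33 to 38 bases before the Rec8 start and 42 to 47 bases before that of Smc1b, where it reads TCCCGC. Stag3 held a CACGTG 165 to 170 bases before its start, and Rad21l an AGATAA 139 to 144 bases before its own. Of 32851 such windows in the RefSeq table, 16.9% held GCGGGA, 6.02% CACGTG, 6.42% CNCCTCAG and 9.99% AGATAA. CNCCTCAG was in no window of a member. The Rad21l window stood apart in base composition, with a GC content of 25.6% and 1 CG dinucleotide, against 56.0%, 62.8% and 58.0% in Rec8, Stag3 and Smc1b with 10, 26 and 25 CG dinucleotides. The median GC content over all windows was 52.4%. GCGGGA also lay in a window of Sgol2, Stag1 and Smc3. A window was at hand for 8 of the 10 members (not for Rad21 and Stag2). RefSeq and GENCODE place some starts differently. By the GENCODE spans given next, the Stag3 window lies inside the gene and the Rec8 window partly so, with the marked motif of each inside the span.

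The members lie on 8 chromosomes of mm10 (GENCODE M21), and all are protein-coding. Rec8 spans chr14:55618037-55625395, Rad21l chr2:151645404-151668533, Stag3 chr5:138280240-138312393, Smc1b chr15:85064689-85131964 and Sgol2 (GENCODE Sgo2a) chr1:57995971-58025899. Rad21 spans chr15:51962240-51991747, Stag1 chr9:100597798-100959375, Stag2 chrX:42149317-42277185, Smc1a chrX:152016428-152062694 and Smc3 chr19:53600398-53645833. Sgol2 overlaps Kctd18 on the opposite strand (at most 90.0 RPM), and whether counting used the strand is not given in the sources used here, so Sgol2 values are uncertain to that extent.

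Depth ran from 877040 to 5196593 reads per library, with 11850 to 16957 genes detected. Values are in RPM (reads scaled to the library total), and 1 read was worth 0.192 to 1.14 RPM. At day 9 the 9 germ cell markers summed to 1072 to 3636 RPM per library (Dazl or Dppa3 highest), the 15 feeder and stroma markers to 107 to 1045 RPM, and the 11 gonadal soma markers to 6.06 to 241 RPM, with Amh at 0 in every day 9 group. The transgene's mCherry tag averaged 284 RPM in A2 control libraries at day 9 and 1292 under Dox. Tags of Zglp1 remained in Zglp1-/- clones under B2RA (26.5 and 20.9 RPM on average), as did tags of Stra8 in Stra8-/- clones (555 RPM in B6 and 59.9 in F6). The deleted part is not given, so these tags do not check the genotypes. On days 4, 5 and 7, all but 1 of the A2 libraries with Dox or DoxRA were extracted under a first protocol and their controls under a second, so treatment and protocol cannot be told apart there. All day 9 libraries share the second protocol, and day 9 is therefore described first.

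Changes were tested with limma on log2(RPM + 1). A change passed, or was called, where its adjusted p (Benjamini-Hochberg, over all tested genes) was under 0.05 and its size was 1 or more in log2 units. A fold is the ratio of mean RPM, and changes on the log2 scale understate those of low genes. The replicate libraries of a group are labelled as such, with nothing said on separate cultures, so p-values measure only the spread between them. In bulk RNA, fewer cells with a transcript and less of it per cell cannot be told apart.

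With ZGLP1 induced in clone A2, Rad21l, Stag3 and Smc1b rose at day 9 in all 4 comparisons that add Dox. Rad21 fell in 3 of the 4 (not in BMS medium), and Rec8 rose in 1, that in BMS medium. Against A2, A11 and Stra8-/- libraries without Dox or B2RA, Rad21l reached the tested level (10 RPM in 2 compared libraries) only through treated libraries. It could thus be called there only as a rise, and in Zglp1-/- clones against H18 under B2RA only as a fall. Likewise it could only be called higher in Stra8-/- than in Zglp1-/- clones, for B2RA levels and B2RA responses alike. In H18 under B2RA, day 9 against day 5, a rise was again the only call open to it. In clone A2 at day 9, Dox changed 4 of the 10 members (Rad21l, Stag3 and Smc1b higher, Rad21 lower), beside 22.8% of all tested genes. DoxRA changed 6 of 10, adding Stag1 higher and Smc1a lower, beside 48.2% of tested genes. Dox changed 6 of 10 in SerumMinusWIN medium (background 23.1%; 3 of 10 without SerumMinusWINDox replicate 2) and 5 of 10 in BMS medium (21.2%). The same 4 genes Rec8, Rad21l, Stag3 and Smc1b rose in BMS medium, in A11 under DoxRA (5 of 10 members called, 20.0% of genes; 3 of 10 without DoxRA replicate 1) and in Stra8-/- clones under B2RA (6 of 10, 20.8%). In Zglp1-/- clones under B2RA 4 of 9 tested members changed beside 11.0% of genes, and Rad21 was not among them.

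**Figure D1:**
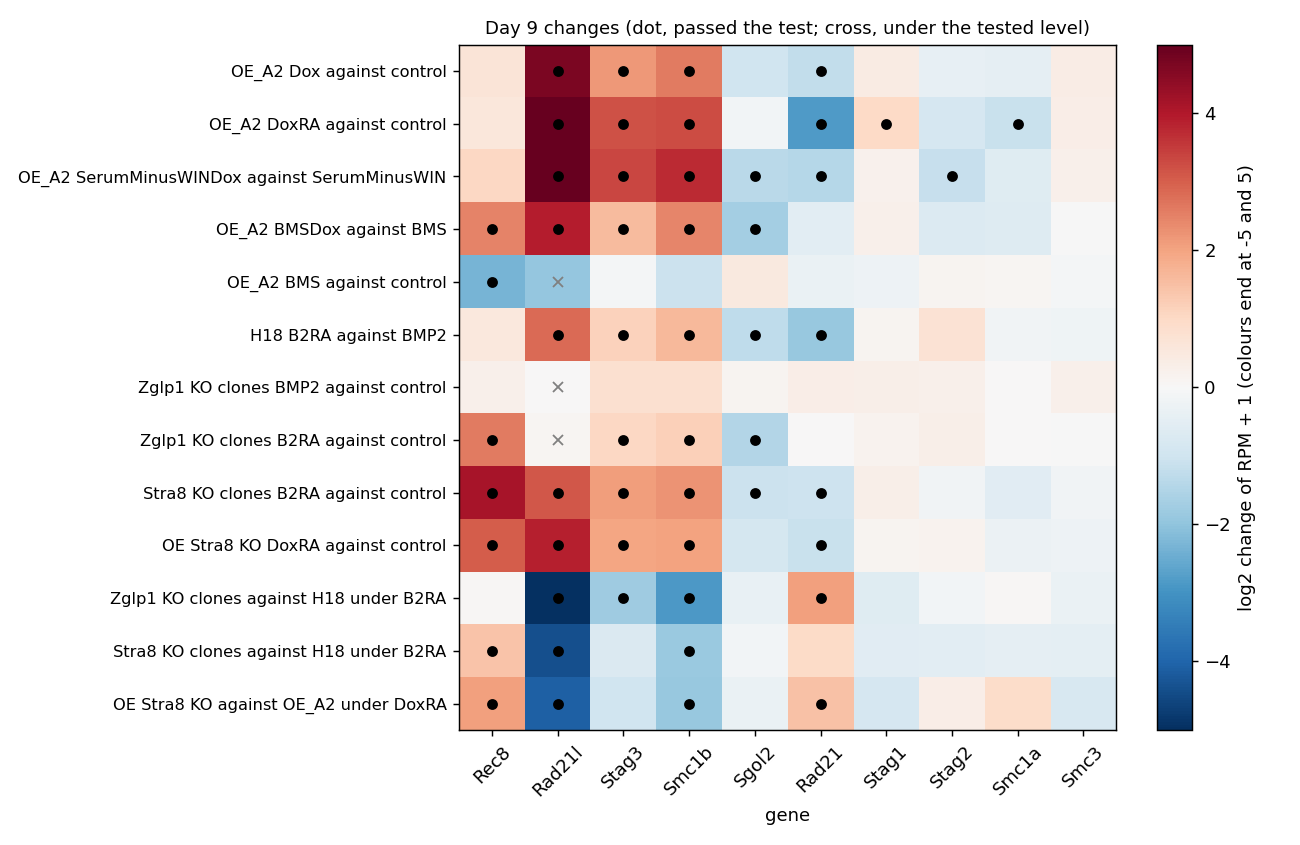
Colour gives the log2 change of RPM + 1 of each of the 10 genes (columns) in each day 9 comparison (rows), black dots mark changes that passed the test, and crosses mark genes under the tested level (OE_A2 is clone A2, OE Stra8 KO is clone A11). Rad21l, Stag3 and Smc1b are red with dots in every row that adds Dox, while Rad21 is blue with a dot in all but the BMS row of these.

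Of all tested genes, the median log2 change at day 9 was 0.06 under Dox and 0.11 under DoxRA. The 5 meiotic members had medians of 2.18 and 3.20, and the 5 mitotic members -0.41 and -0.86. The mitotic medians were the values of Stag2, which passed in neither comparison. The mitotic members did not move together, with Rad21 and Smc1a lower and Stag1 and Smc3 higher in mean. These comparisons share the A2 control libraries. Scaling by TMM factors instead of RPM moved the median change of all tested genes by -0.27 in BMS medium with Dox, by -0.28 in Stra8-/- clones under B2RA, by -0.23 in A11 under DoxRA and by -0.16 in Zglp1-/- clones under B2RA. It reversed the direction of no called member. The day 9 calls it ended were those of Stag1 under DoxRA (0.91), of Stag3 in 4 comparisons (0.89 to 0.99) and of Smc1b in 2 (0.95 and 0.97), and those that bear on a result are given with the gene.

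Rec8 encodes the kleisin that carries cohesion through meiosis. In A2 at day 9 it stood at 122 and 88.4 RPM in the control libraries, at 154 and 168 RPM under Dox, and at 117 and 204 RPM under DoxRA. Both Dox libraries were above both controls, whereas 1 DoxRA library lay among the controls. The 1.53-fold higher mean under Dox did not pass (log2 0.63 ± 0.43 (SE), adjusted p = 0.262), nor did DoxRA (0.57, adjusted p = 0.244). The control libraries themselves had climbed since day 4, from 46.5 and 24.5 RPM (log2 1.59 ± 0.43, adjusted p = 0.00630, beside 10.5% of genes called). Without replicate 1 of the day 9 control this gain had an adjusted p of 0.102, and without replicate 2 of the day 4 control 0.204.

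In BMS medium the Rec8 starting level was lower. It stood at 23.6 and 16.6 RPM in BMS and at 111 and 119 RPM in BMS with Dox. The groups were far apart, and the 5.72-fold rise passed (2.48 ± 0.43, adjusted p = 2.79e-06). BMS alone lowered Rec8 against the control (-2.33 ± 0.43, adjusted p = 0.000256), the only member called in that comparison, where 2.46% of tested genes were. Without replicate 1 of the control the adjusted p was 0.0698, and without replicate 2 of BMS 2 members passed. Stra8, the RA-responsive gene deleted in other clones here, averaged 332 RPM in control and 1.38 RPM in BMS medium at day 9, and 33.7 RPM in BMS with Dox. The Dox response of Rec8 in BMS medium minus that in control medium was 1.85 on the log2 scale and did not pass (adjusted p = 0.0897, 1.64% of genes called). It passed when only the compared groups were fitted (0.0261) and with edgeR on recovered reads (0.0438). No other member passed there. For the response in SerumMinusWIN minus that in control medium none passed by limma or edgeR (0.0100% of genes), and 2 had an unadjusted p under 0.05. SerumMinusWIN alone changed no member against control by limma, beside 0.0220% of genes (2 members had an unadjusted p under 0.05, none passed with edgeR, and 2 passed without its replicate 2). In that medium Rec8 was at 66.6 and 77.0 RPM without Dox and at 130 and 165 RPM with it (log2 1.03, adjusted p = 0.0527; 0.0368 with the replicate block).

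Earlier in culture Rec8 was called under Dox in A2, within the limit on protocol given above. At day 5 it was at 99.3 and 27.7 RPM in control, 194 and 192 RPM under Dox, and 433 and 396 RPM under DoxRA. Dox libraries were close to each other and above both controls, and DoxRA libraries were higher still. The changes were 1.85 (adjusted p = 0.00116) and 2.95 (3.41e-08), beside 11.8% and 24.3% of genes called. The day 5 Dox call did not hold when only the compared groups were fitted (adjusted p = 0.0627) or without control replicate 2 (0.949, adjusted p = 0.221). Those of day 4 (1.53) and day 7 (1.20) were each lost without any of 3 libraries (adjusted p up to 0.214 and 0.157). At day 9 the DoxRA mean was 0.999 of the Dox mean. In the BMS series, where every library shares a protocol, Rec8 with Dox was at 78.8 and 75.9 RPM on day 4 against 14.3 and 8.07 RPM without (2.73, adjusted p = 4.64e-06). On day 7 it was at 140 and 120 RPM against 16.3 and 9.86 RPM (3.25, adjusted p = 3.01e-09). Backgrounds were 9.32% and 16.7%.

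On the earlier days in A2 the counts of called members were read beside those of all genes. Under Dox 3 of 9 tested members passed on day 4, 4 of 10 on day 5 and 6 of 10 on day 7, beside 9.61%, 11.8% and 25.3% of genes. Under DoxRA these counts were 3 of 9, 5 of 10 and 7 of 10 beside 14.1%, 24.3% and 39.3% of genes, the last with Smc1a and Rad21 lower. The share of all genes called thus grew over the same days. DoxRA differed from Dox in no member by limma on these days (backgrounds 0.238%, 0.802% and 2.18%), with an unadjusted p under 0.05 for 1, 1 and 2 members. Rec8 on day 5 came nearest, with 1.10 and an adjusted p of 0.337, or 2.36e-05 when only the compared groups were fitted. In the 2 media with a single protocol throughout, SerumMinusWIN with Dox changed 1, 3 and 5 members on days 4, 5 and 7 (3.72%, 5.59% and 20.4% of genes), and BMS with Dox changed 4, 3 and 5 (9.32%, 11.6% and 16.7%). Rec8 passed on each of these days in both media. In SerumMinusWIN it was the 1 member called on day 4 (2.16, adjusted p = 0.000754). Leaving out replicate 1 with Dox (0.0991) or replicate 2 without it (0.317) ended the call, as did fitting the compared groups alone (0.0993).

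**Figure D2:**
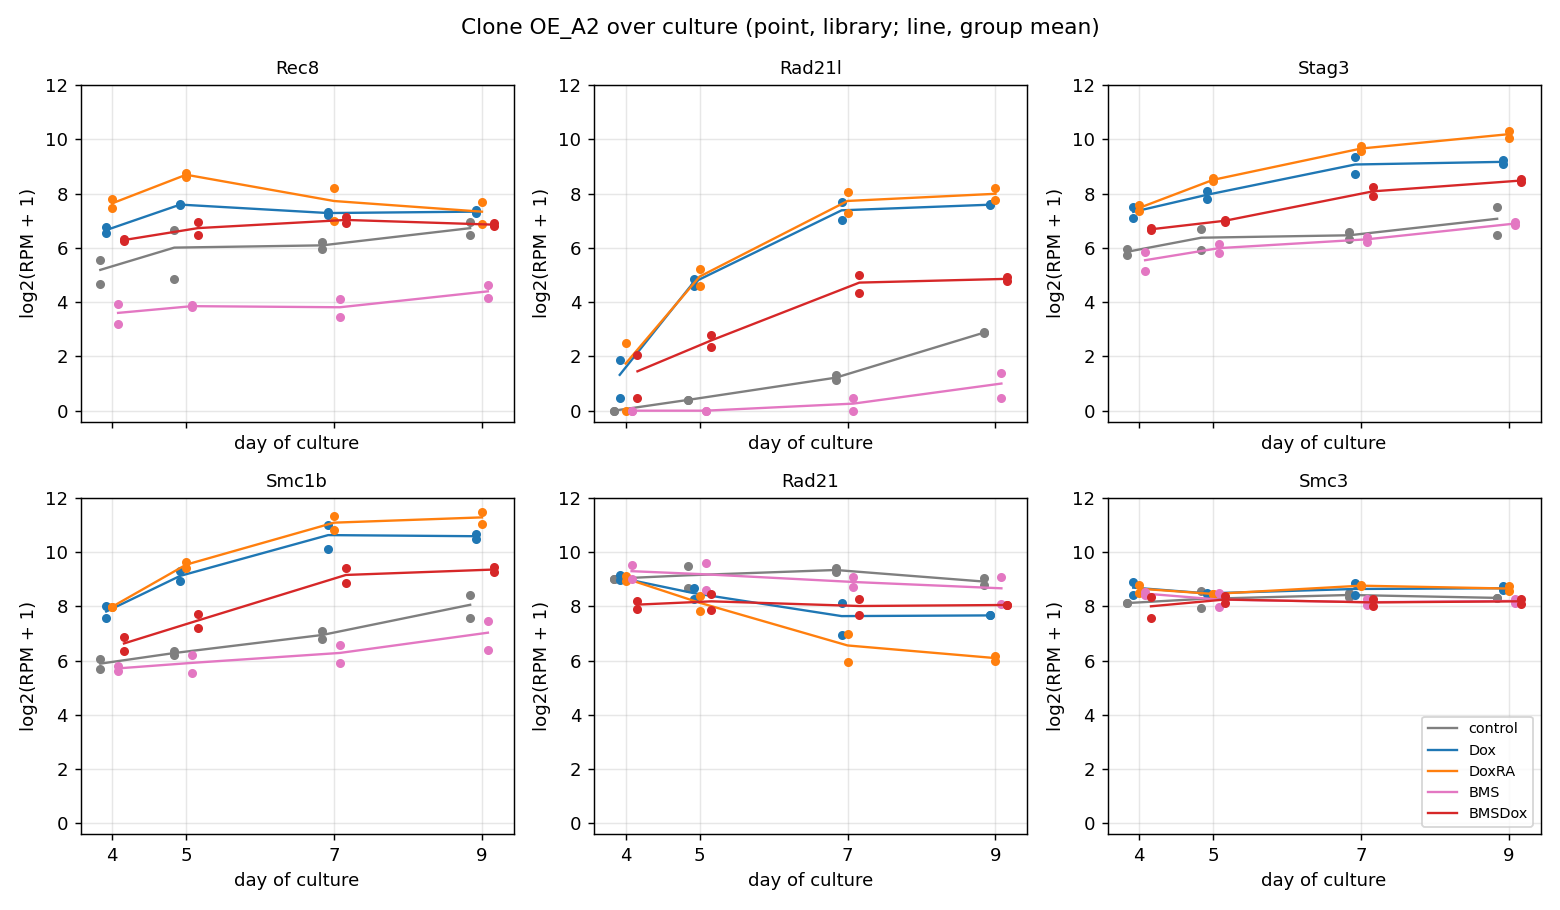
Levels in clone A2 on days 4, 5, 7 and 9 of culture as log2(RPM + 1), with points for libraries and lines through group means, coloured by treatment. Rec8 under DoxRA is highest at day 5 (433 and 396 RPM), Rad21l climbs between days 5 and 7, Rad21 declines under Dox and DoxRA, and Smc3 stays level. Dox and DoxRA libraries of days 4 and 5 were of the first protocol and those of day 9 of the second. Between these days, day and protocol cannot be told apart.

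Rad21l encodes the other meiotic kleisin, which is found mainly early in prophase. It was the member closest to silent outside the induced groups, with no read in 113 of the 191 PGCLC libraries. In A2 at day 9 it was at 6.20 and 6.47 RPM in control, 190 and 195 RPM under Dox, and 293 and 216 RPM under DoxRA. Every treated library was far above both controls. The rises were 30.4-fold under Dox (4.72 ± 0.48, adjusted p = 9.42e-14) and 40.2-fold under DoxRA (5.11, adjusted p = 6.15e-17). In BMS medium Dox took it from 0.375 and 1.63 RPM only to 26.8 and 29.3 RPM, in SerumMinusWIN from 1.78 and 1.28 RPM to 98.8 and 124 RPM, and both rises passed (3.93 and 5.47). The levels with Dox thus stood in the order control medium, SerumMinusWIN, BMS with no overlap of libraries. The mCherry tag of the transgene stood in the reverse order, at 1292, 6287 and 10340 RPM on average. The part of these differences in the result was not tested.

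The Rad21l rise came later than that of Rec8. On day 4 under Dox it had 2.63 and 0.367 RPM, on day 5 23.0 and 28.3 RPM, and on day 7 205 and 128 RPM. The step from day 5 to day 7 was the one in which it approached its final level. On day 4, when Rad21l was below the tested level, Rec8, Stag3 and Smc1b were already called under Dox (9.61% of genes called) and under DoxRA (14.1%). In BMS medium it passed on day 7 (4.44), at 31.4 and 19.4 RPM.

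Rad21, which closes the ring in mitotic cells, moved the other way. At day 9 it was at 440 and 525 RPM in A2 control libraries, 202 and 203 RPM under Dox, and 71.6 and 63.0 RPM under DoxRA. The 3 groups did not overlap. Rad21 fell by 1.24 on the log2 scale under Dox (adjusted p = 0.00301) and by 2.82 under DoxRA (adjusted p = 1.73e-11). DoxRA was also lower than Dox (-1.58, adjusted p = 0.000269), in a comparison where 14.9% of genes and 2 members passed (1 member without Dox replicate 2 or DoxRA replicate 2). In BMS medium Rad21 was at 272 and 539 RPM without Dox and at 263 and 266 RPM with it (-0.53, adjusted p = 0.239). It was on day 4 in that medium that Rad21 passed, with 514 and 744 RPM falling to 296 and 238 RPM (-1.22; -0.95 and an adjusted p of 0.250 without BMS replicate 2).

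Stag3 encodes the meiotic partner bound to the kleisin. In A2 at day 9 it was at 88.5 and 179 RPM in control, 607 and 546 RPM under Dox, and 1068 and 1274 RPM under DoxRA. The 3 groups did not overlap, and in relative terms the control libraries differed from each other more than the treated ones did. Stag3 rose 4.31-fold under Dox (2.18 ± 0.31, adjusted p = 1.69e-08) and 8.75-fold under DoxRA (3.20, adjusted p = 5.00e-16). The step from Dox to DoxRA was 1.02 (adjusted p = 0.0103). It dropped below 1 with TMM factors (0.95) and with edgeR (0.91), and had adjusted p values of 0.114 and 0.103 without Dox replicate 2 or DoxRA replicate 2.

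Its mitotic counterparts had smaller differences. Stag1 was at 109 and 103 RPM in control, 138 and 142 RPM under Dox, and 186 and 249 RPM under DoxRA. Its DoxRA gain of 1.01 ± 0.24 (adjusted p = 0.000138) sat at the threshold of size and fell under it in 5 of 11 alternatives, to 0.81 at the lowest. Stag2 was at 47.8 and 49.9 RPM in control and at 42.1 and 31.5 RPM under Dox (-0.41, adjusted p = 0.484). Its DoxRA libraries, at 15.3 and 45.4 RPM, disagreed by more than the difference between the groups (-0.86, adjusted p = 0.0743), which passed only without DoxRA replicate 2 (-1.61, 0.00573). In SerumMinusWIN Dox lowered Stag2 from 57.2 and 54.3 RPM to 21.5 and 27.5 RPM (-1.16, adjusted p = 0.0262), a call that ended when any 1 of the 4 libraries was left out (adjusted p up to 0.138).

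Smc1b encodes the SMC1 protein of meiotic rings, and it had the widest range of group means among members with reads in every group, 290-fold. In A2 at day 9 it was at 189 and 343 RPM in control, 1633 and 1442 RPM under Dox, and 2858 and 2120 RPM under DoxRA. All treated libraries were several times above both controls. The rises were 5.79-fold (2.59 ± 0.35, adjusted p = 3.45e-09) and 9.37-fold (3.27, adjusted p = 4.79e-14). In BMS medium Dox took it from 82.9 and 177 RPM to 614 and 698 RPM (2.42, adjusted p = 3.12e-08). Smc1a was at 74.0 and 76.2 RPM in control, 55.0 and 54.0 RPM under Dox (-0.45, adjusted p = 0.221), and 36.1 and 32.7 RPM under DoxRA (-1.11 ± 0.29, adjusted p = 0.000541). Within a library the ratio of Smc1b to Smc1a tags was therefore 2.55 and 4.50 in control, 29.7 and 26.7 under Dox, and 79.2 and 64.9 under DoxRA. Ratios of tags from 2 genes are read only between libraries, because capture can differ between genes.

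Smc3, the subunit of both kinds of ring, was called in no comparison at day 9. It was at 319 and 316 RPM in A2 control, 426 and 386 RPM under Dox, and 426 and 379 RPM under DoxRA (0.34, adjusted p = 0.301). Over the 98 PGCLC groups its highest mean was 2.05-fold its lowest, the narrowest range of the members.

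Sgol2 went against the other meiotic members. In BMS medium at day 9 it was at 117 and 96.6 RPM, and at 33.2 and 30.3 RPM with Dox (-1.72 ± 0.48, adjusted p = 0.00366; 0.0545 without replicate 1 of BMS). In SerumMinusWIN it went from 64.0 and 89.5 RPM to 38.0 and 22.3 RPM (-1.35, adjusted p = 0.0223), which did not pass without replicate 2 of either group (0.165 and 0.272). In control medium it was at 61.3 and 93.1 RPM and, under Dox, at 37.4 and 36.4 RPM. That difference (-1.01, adjusted p = 0.0937) passed only when the compared groups were fitted alone (0.00241). Under DoxRA Sgol2 stood at 67.9 and 68.6 RPM, inside the range of the controls.

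**Figure D3:**
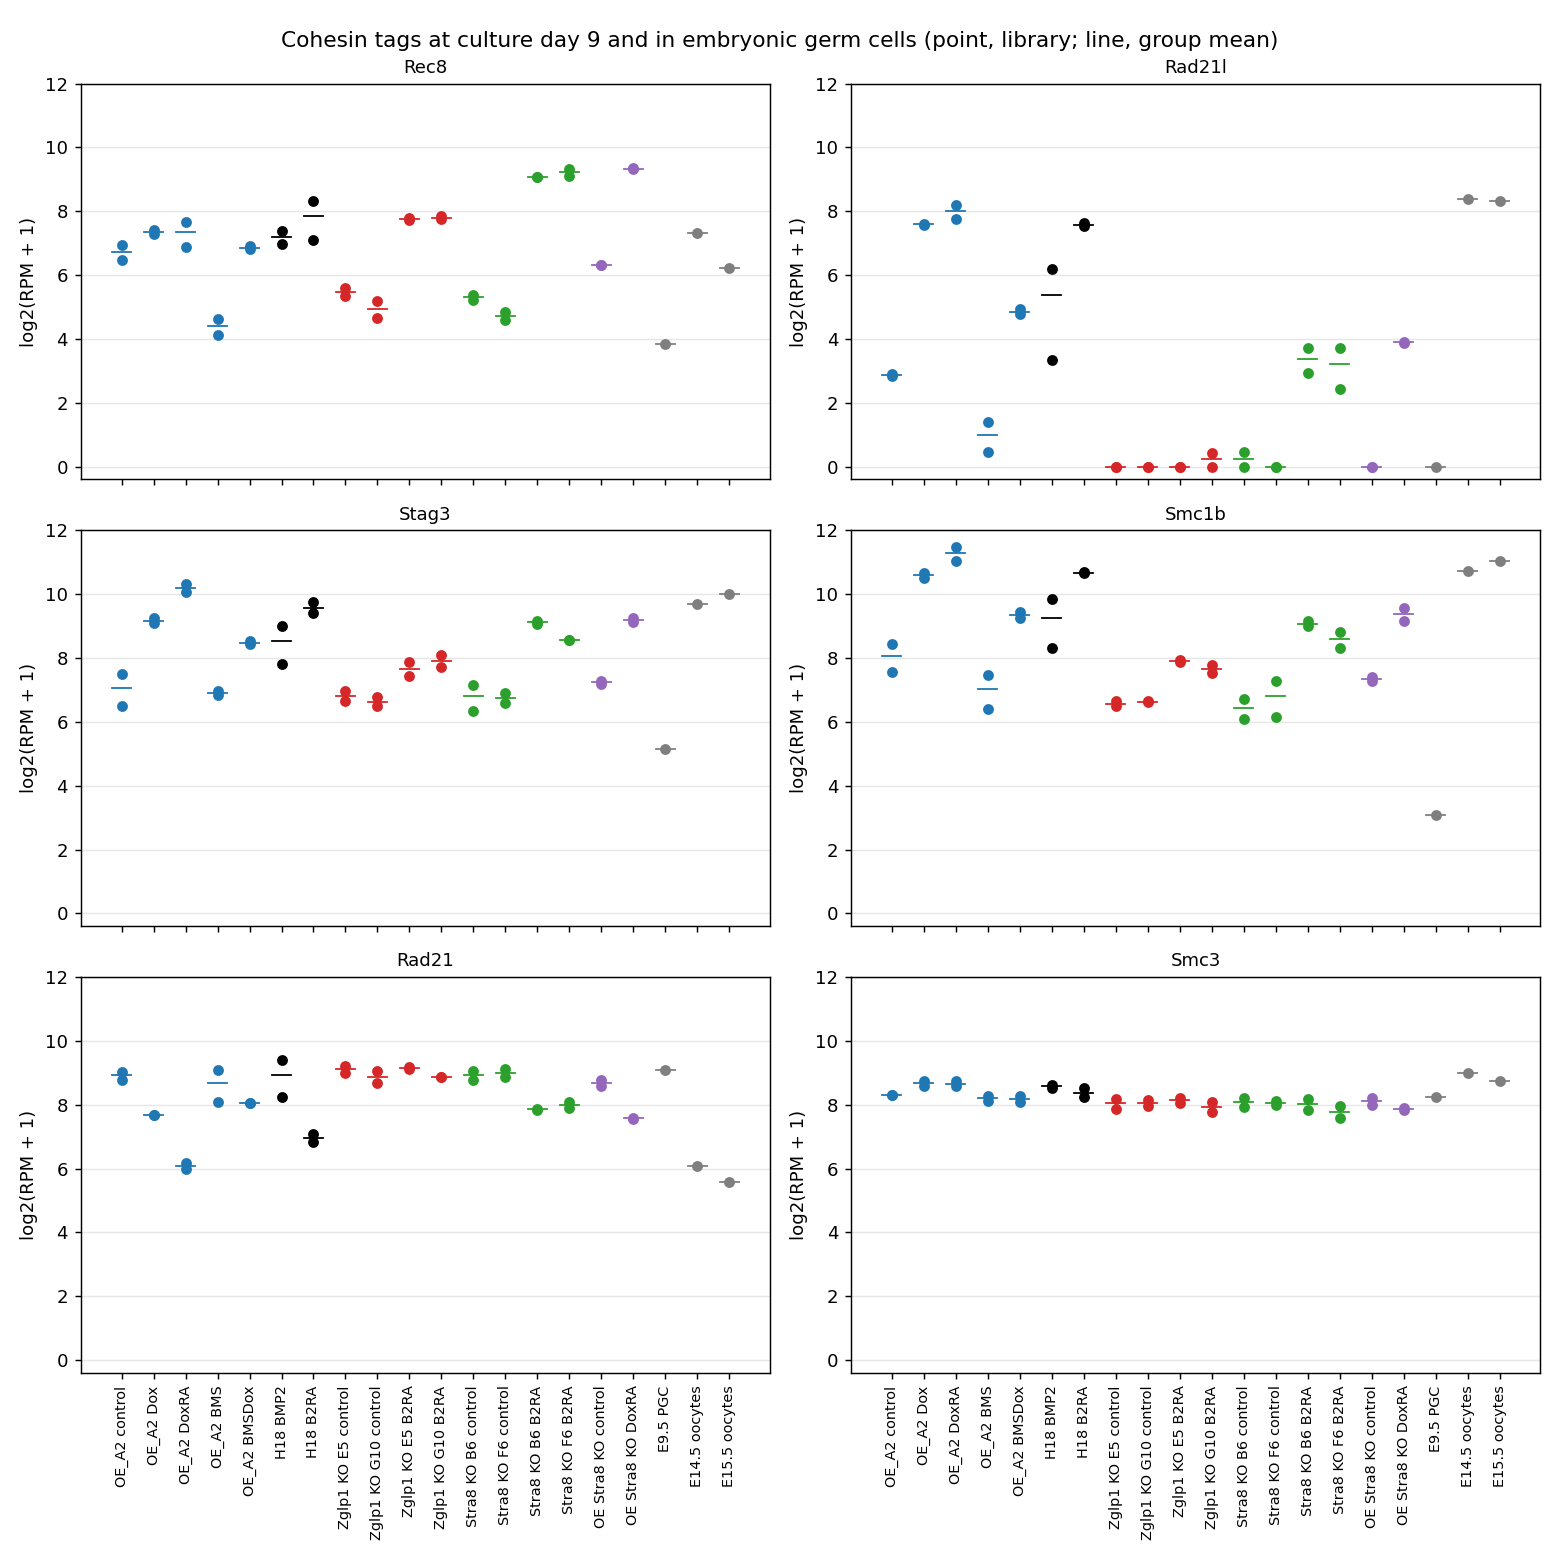
Levels of 6 members as log2(RPM + 1) in day 9 groups and embryonic germ cells, with a point per library and a line at the group mean, coloured by line or clone. Rad21l is near 0 in both Zglp1-/- clones under B2RA while Rec8 is raised in them, and both Stra8-/- clones under B2RA have Rec8 above H18, at 537 to 643 RPM.

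The parental line H18 carries no transgene and was given BMP2 and RA. With BMP2, Rec8 was at 26.4 and 18.3 RPM on day 5 and at 166 and 126 RPM on day 9 (2.66, adjusted p = 1.55e-06). BMP2 raised 3 of the 9 tested members over this time (Rec8, Stag3 and Smc1b; 11.8% of genes called). Without BMP2 replicate 1 of day 9 the Stag3 gain had an adjusted p of 0.0978. With B2RA 5 of 10 changed from day 5 to day 9 (41.2% of genes). Rad21l had no read on day 5 and 196 and 185 RPM on day 9, at least 292-fold higher (against 3 reads over the group). Smc1b rose 20.8-fold, Stag3 10.2-fold and Rec8 3.55-fold, and Rad21 fell by 2.30 on the log2 scale (adjusted p = 2.02e-08). The Rec8 gain did not pass when only the compared groups were fitted (0.0869) or without B2RA replicate 1 of day 5 (0.0772).

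B2RA and BMP2 were compared directly in H18, which has no untreated library after day 4. On day 5 no member passed with limma (0.218% of genes), and 1 member, Rec8, had an unadjusted p under 0.05 (0.00413). On day 7 Rec8 was at 396 and 798 RPM under B2RA and at 125 and 156 RPM under BMP2 (2.00, adjusted p = 0.000985; 4.53% of genes). The higher library, B2RA replicate 2, also held the lowest Smc3 (80.4 RPM) and Stag1 (65.4 RPM) of the 191 libraries, and without it the adjusted p was 0.0804. On day 9 Rad21l was at 196 and 185 RPM under B2RA and at 71.4 and 9.19 RPM under BMP2, a pair that disagreed widely. Rad21l, Stag3 and Smc1b were higher under B2RA, and Sgol2 and Rad21 lower (5 of 10, 16.0% of genes). The 5 calls rested on BMP2 replicate 2. Without that library 0 of 10 passed in limma (Rad21l 1.40, adjusted p = 0.134), and with only the compared groups fitted 1 passed. Gonadal soma markers summed to 54.4 to 241 RPM in H18 B2RA libraries at day 9 and to 17.3 to 19.6 RPM under BMP2, with 6 of the 11 at 1 RPM or more under B2RA (Gata4 highest, at 66.1 RPM on average) and Amh, Foxl2, Nr5a1 and Tcf21 at 0. Their part in the result was not tested.

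In Zglp1-/- cells B2RA raised Rec8, while Rad21l had almost no tags and Rad21 stayed at its control level. At day 9 Rec8 was at 39.8 and 47.4 RPM in control and 211 and 219 RPM under B2RA in E5, and at 35.3 and 24.1 RPM and 229 and 214 RPM in G10. Both clones gave the same picture, with all B2RA libraries above all controls. The pooled means were 36.6 ± 9.75 and 218 ± 7.88 RPM (SD, n = 4), a 5.96-fold rise (2.58 ± 0.30, adjusted p = 3.24e-11). BMP2 alone changed no member in these clones by limma or edgeR (1.46% of genes called, and 2 members with an unadjusted p under 0.05). Rec8 was at 44.7, 27.6, 59.3 and 43.4 RPM in the 4 BMP2 libraries, and Stag3 came nearest to a call with an adjusted p of 0.0334 at a change of 0.78.

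Stag3 and Smc1b rose in Zglp1-/- clones under B2RA by smaller amounts, 2.10-fold and 2.30-fold. Stag3 was at 124 and 99.5 RPM in E5 control and 108 and 88.9 RPM in G10 control, and at 233, 170, 274 and 207 RPM under B2RA. All B2RA libraries were above all controls. The Stag3 change of 1.05 (adjusted p = 0.000108) fell under 1 in 6 of 15 alternatives, TMM factors (0.89) among them, while Smc1b was 1.18 (adjusted p = 0.000105). Sgol2 fell (-1.48), a call that rested on E5 B2RA replicate 2 with 5.07 RPM and was lost without it (-0.61, adjusted p = 0.191). Rad21 stood at 511 ± 74.4 RPM in control and 516 ± 59.2 RPM under B2RA (SD, n = 4; 0.02, adjusted p = 0.968).

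Rad21l had 3 reads in all over the 52 libraries of both Zglp1-/- clones, at every day and treatment. H18 gave 1662 reads in 27 libraries and A2 6444 reads in 64. The 4 Zglp1-/- B2RA libraries of day 9 held 1 read, where H18 had 196 and 185 RPM. A single read is worth at most 1.14 RPM in any library.

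Set against H18 under B2RA at day 9, Zglp1-/- clones had Rec8 at the parental mean (218 and 229 RPM, log2 0.05, adjusted p = 0.914). The H18 libraries were wide apart, at 138 and 321 RPM. Rad21l (-7.48, a value that depends on the pseudocount), Stag3 (-1.80, adjusted p = 1.42e-08) and Smc1b (-2.89, adjusted p = 3.65e-14) were lower, and Rad21 was higher (2.05, adjusted p = 7.84e-09). These were 4 of 10 members beside 36.4% of genes. Under BMP2 the clones were lower than H18 in Rec8 (-1.75, adjusted p = 0.000138) and Smc1b (-1.68, adjusted p = 7.39e-06), 2 of the 9 tested members beside 15.6% of genes. That count was 1 without H18 BMP2 replicate 1 and 4 without replicate 2. Rad21l had no read in the 4 BMP2 libraries, where H18 had 71.4 and 9.19 RPM. Parental line and clones were derived separately, so clone and genotype cannot be told apart beyond the 2 clones.

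Stra8-/- clones under B2RA combined a high Rec8 with a low but readable Rad21l. At day 9 Rec8 was at 36.2 and 40.6 RPM in B6 control and 23.1 and 28.0 RPM in F6 control. Under B2RA it was at 537 and 540 RPM in B6 and 554 and 643 RPM in F6. No library of 1 group came near the other, and the 17.8-fold rise passed (4.14 ± 0.30, adjusted p = 6.92e-22). Rad21l was at 6.67 and 12.2 RPM in B6 and 4.39 and 12.1 RPM in F6 under B2RA, with 1 read over the 4 controls (3.09 ± 0.34, a size that depends on the pseudocount, adjusted p = 3.23e-13). Stag3 rose 4.26-fold and Smc1b 4.66-fold. Rad21 went from 498 ± 57.8 to 242 ± 19.9 RPM (SD, n = 4), a change of -1.04 (adjusted p = 0.000288) that fell just under 1 without any of 3 libraries (B6 control 1, F6 control 1 or F6 B2RA 1; -0.98 to -0.96).

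Against H18 under B2RA at day 9, Stra8-/- clones were higher in Rec8 (1.43 ± 0.37, adjusted p = 0.00113). They were lower in Rad21l (-4.38, adjusted p = 1.92e-15) and Smc1b (-1.86, adjusted p = 3.83e-07), which makes 3 of 10 beside 24.8% of genes. The Rec8 difference had an adjusted p of 0.185 without H18 replicate 1. Against Zglp1-/- clones under B2RA, Rec8 was 2.60-fold, Stag3 2.10-fold and Smc1b 2.09-fold higher, Rad21l was higher and Rad21 was lower (5 of 10, 11.9% of genes; 3 of 10 without G10 replicate 2, B6 replicate 2 or F6 replicate 2). Of these, Smc1b fell under 1 with TMM factors (0.97), and Rad21l could be called only as higher. Over the 4 clones Rec8 under B2RA was at 13.1 to 20.8 RPM on day 4 and 148 to 245 RPM on day 7. Libraries of both genotypes overlapped on these days and no longer did on day 9. In H18 under B2RA Rec8 was at 396 and 798 RPM on day 7 and at 138 and 321 RPM on day 9. On day 7 H18 was thus above the Stra8-/- clones, the reverse of day 9, and that difference was not tested.

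The difference in the B2RA response itself passed for 5 of 10 members, Rec8, Rad21l, Stag3, Smc1b and Rad21, where 8.04% of genes did. Rec8 responded more in Stra8-/- than in Zglp1-/- clones by 1.56 ± 0.43 (adjusted p = 0.00939), and the call held in all 23 alternatives. Those of Stag3 (1.03), Smc1b (1.08) and Rad21 (-1.05) were lost in 8, 9 and 9 of 23. That of Rad21l (2.98) had almost no reads behind it outside the Stra8-/- B2RA libraries and did not pass with edgeR on recovered reads.

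Clone A11, which carries the transgene without Stra8, also combined a high Rec8 with a low Rad21l. At day 9 Rec8 was at 78.8 and 78.0 RPM in control and 637 and 652 RPM under DoxRA. The 8.22-fold rise passed (3.02 ± 0.43, adjusted p = 2.09e-08), and the treated libraries were the highest group mean of Rec8 in the series (644 ± 10.2 RPM). Rad21l went from no read to 13.8 and 14.0 RPM, at least 19.2-fold (against 3 reads over the group). Stag3 rose 3.91-fold and Smc1b 4.11-fold. Rad21 fell from 439 and 380 RPM to 188 and 190 RPM (-1.11, adjusted p = 0.00960; 0.0812 without control replicate 1 and 0.0704 without DoxRA replicate 1).

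Under DoxRA at day 9, A11 was 4.01-fold above A2 in Rec8 (2.05 ± 0.43, adjusted p = 4.56e-05) and 2.81-fold above it in Rad21 (1.48, adjusted p = 0.000266). It was lower in Rad21l (-4.08, adjusted p = 4.97e-12) and Smc1b (-1.90, adjusted p = 3.85e-06), 4 of 10 members beside 31.1% of genes. Stag3 was at 613 and 559 RPM in A11 and 1068 and 1274 RPM in A2, a change of -0.99 that passed with TMM factors (-1.12). The mCherry tag averaged 4841 RPM in A11 and 3165 RPM in A2 under DoxRA. On earlier days Rec8 under DoxRA stood in the reverse order. It was at 224 and 175 RPM in A2 and 56.3 and 45.8 RPM in A11 on day 4. On day 5 it was at 433 and 396 RPM in A2 and 239 and 122 RPM in A11. Those A2 libraries were of the first protocol and those of A11 of the second, and the differences were not tested. The response to DoxRA differed between the clones in Rec8 (2.45 ± 0.61, adjusted p = 0.00151), Stag3 (-1.24 ± 0.44, adjusted p = 0.0310) and Rad21 (1.71 ± 0.49, adjusted p = 0.00678), 3 of 10 beside 20.0% of genes. The Stag3 value was lost in 7 of 15 alternatives. For Rad21l the difference was -1.21 (adjusted p = 0.195), which became -2.58 (1.56e-07) with a pseudocount of 5. That of Smc1b was -1.25 (adjusted p = 0.0558), and it passed with TMM factors (0.0332), a pseudocount of 5 (0.0379) and the replicate block (0.0429).

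Ordered by mean at day 9, Rec8 was highest in A11 DoxRA (644 RPM), F6 B2RA (599) and B6 B2RA (539). H18 B2RA (229), G10 B2RA (222) and E5 B2RA (215) followed, and their libraries overlapped one another. The F6 and B6 libraries stood above all of these, while the A2 groups with Dox or DoxRA (161 each) lay below the Zglp1-/- clones under B2RA in mean. Rad21l had another order, with A2 DoxRA (254 RPM), A2 Dox (192), H18 B2RA (191), A2 SerumMinusWINDox (112), H18 BMP2 (40.3), A2 BMSDox (28.0) and A11 DoxRA (13.9). Across groups the correlation of Rec8 with Rad21l was 0.64 (Pearson's r of log2 means over 98 groups that share lines, given as a description), against 0.81 for Rec8 with Smc1b and 0.91 for Stag3 with Smc1b.

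**Figure D4:**
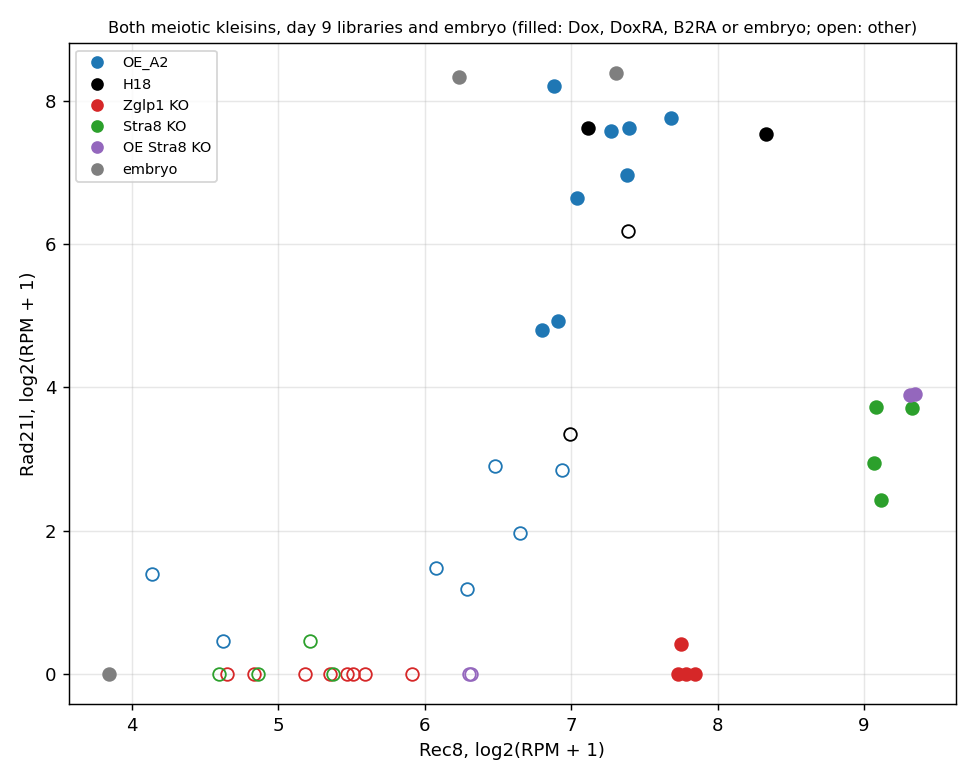
Each point is a library, at its Rec8 level (horizontal) and Rad21l level (vertical), both as log2(RPM + 1), coloured by line and filled for Dox, DoxRA, B2RA or embryo. Among filled points, Zglp1-/- libraries lie at the bottom with Rec8 at 211 to 229 RPM, Stra8-/- and A11 (OE Stra8 KO) libraries lie at the far right with low Rad21l, and A2 (OE_A2), H18 and oocyte libraries lie higher.

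The meiotic share of kleisin tags, (Rec8 + Rad21l) of the 3 kleisin genes within a library, put these changes on 1 scale. It was 22.5% and 15.3% in A2 control at day 9, 63.0% and 64.1% under Dox, and 85.1% and 87.0% under DoxRA. The groups did not overlap. In H18 it averaged 76.6% under B2RA, while the BMP2 libraries had 44.1% and 16.6%. Zglp1-/- clones reached 27.6% and 32.3% on average under B2RA from 7.40% and 5.89%, and Stra8-/- clones 70.4% and 70.5% from 7.46% and 4.84%. A11 went from 16.1% to 77.7%. In the Zglp1-/- clones under B2RA all but 1 of the meiotic kleisin reads came from Rec8.

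**Figure D5:**
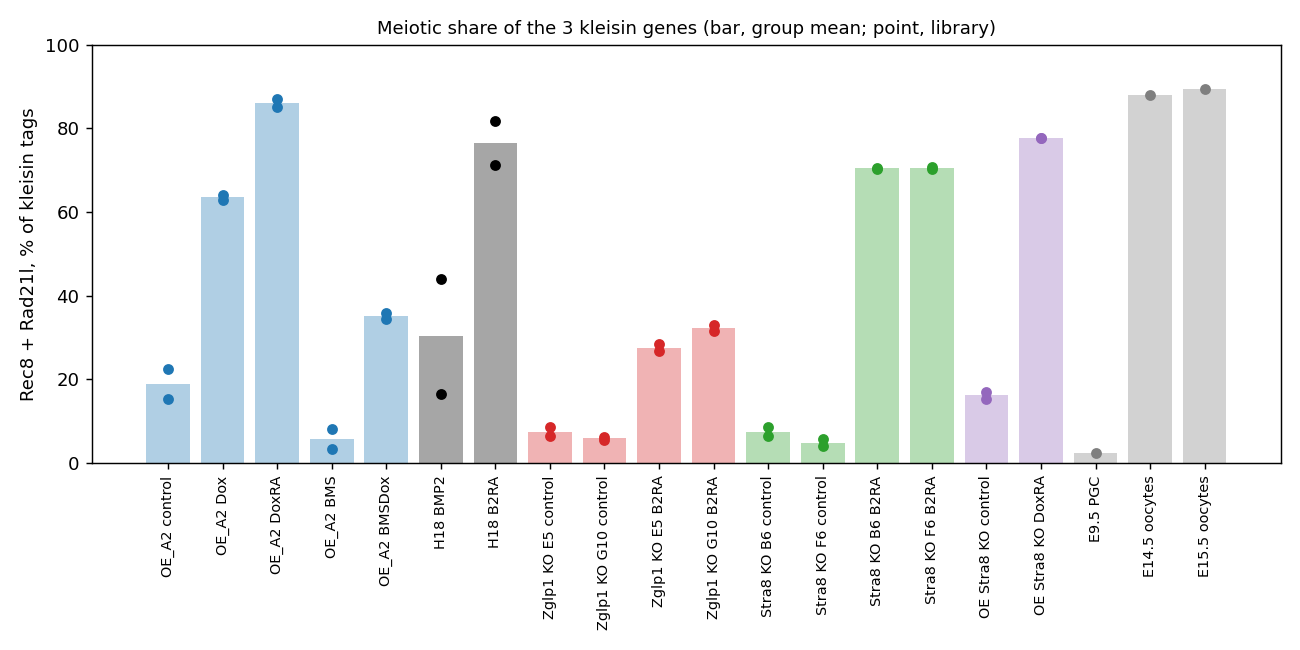
Bars give the group mean, and points each library, of the percentage of Rec8, Rad21l and Rad21 tags that came from Rec8 or Rad21l, for day 9 groups and embryonic germ cells. Control libraries lie at or below 22.5%, Zglp1-/- clones under B2RA at 27.6% and 32.3% on average, and the DoxRA group of A2 (86.0% on average) beside the oocytes (87.9% and 89.5%).

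Germ cells from embryos span the same switch, with 1 library per stage and so no test. Rec8 was at 13.4 RPM at E9.5 (95% Poisson interval 10.1 to 17.4), 157 RPM at E14.5 (144 to 171) and 74.3 RPM at E15.5 (64.6 to 85.2). It was thus highest at E14.5. Rad21l had no read at E9.5, which allows up to 0.717 RPM, and stood at 332 and 321 RPM in the oocytes, at least 462-fold higher at E14.5 (against 3 reads in the library). Stag3 went from 34.7 to 823 and 1017 RPM, and Smc1b from 7.41 to 1687 and 2121 RPM, 23.7-fold and 227-fold at E14.5. Intervals and floors cover counting error only.

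The mitotic kleisin went down over the same stages. Rad21 was at 541 RPM at E9.5, 67.3 RPM at E14.5 and 46.5 RPM at E15.5, 8.05-fold lower at E14.5. Smc1a went from 130 to 39.7 and 43.6 RPM and Sgol2 from 108 to 36.1 and 26.1 RPM. Stag1 (129, 152 and 139 RPM), Stag2 (31.8, 25.1 and 25.0 RPM) and Smc3 (300, 505 and 425 RPM) stayed within 1.68-fold of the E9.5 level. The ratio of Stag3 to Stag1 plus Stag2 was 0.216 at E9.5 and 4.64 and 6.20 in the oocytes, beside 0.565 and 1.17 in A2 control, 3.37 and 3.15 under Dox, and 5.30 and 4.33 under DoxRA. Rec8 levels of 537 to 652 RPM in the treated Stra8-/- and A11 groups at day 9 were above every embryonic library here. Levels of other groups were above them as well, such as those of Zglp1-/- clones under B2RA at day 9 (211 to 229 RPM). H18 under B2RA on day 7 (396 and 798 RPM) and A2 under DoxRA on day 5 (433 and 396 RPM) are further cases. Strain, reporter and culture differ between embryos and PGCLCs and cannot be told apart from stage.

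Among 22 genes that load, release, acetylate, cleave or protect cohesin, 19 were tested at day 9. In A2, Dox changed 7 of 19 beside 22.8% of all tested genes. It raised 5, with Mau2 (1.74) and Nipbl (1.04), the loader subunits, Esco2 (1.69) and Esco1 (1.11), the acetyltransferases of SMC3, and the kinase gene Bub1 (1.45). It lowered 2, Aurkb (-1.70) and Plk1 (-1.51), kinases of mitosis that act on cohesin or its centromeric protectors. The list's median was 0.16, beside 0.06 for all genes. DoxRA changed 9 of 19 beside 48.2% of all genes, so that the list's share was near the background. It raised the same 5, Esco2 to 2.21, Bub1 to 2.37 and Nipbl to 1.90, and lowered 4, adding Pttg1 (securin, the separase inhibitor, -2.99) and Cdca5 (sororin, -1.14). In H18 under B2RA, day 9 against day 5, 9 of 19 passed beside 41.2% of all genes, also near the background, with Bub1, Esco1, Esco2, Mau2 and Nipbl higher and Aurkb, Cdca5, Plk1 and Pttg1 lower, which are the 9 called under DoxRA in A2.

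At day 9 under B2RA, H18 had Nipbl higher (1.04) and Pttg1 (-1.38) and Cdca5 (-1.56) lower than under BMP2, beside 16.0% of all genes called. Against their controls, Zglp1-/- clones under B2RA had 1 of 19 called, Esco2 (-1.01), beside 11.0% of all genes. Stra8-/- clones had 2, Gsg2 (haspin, 1.09) and Aurkb (-1.26), beside 20.8%, and neither count was above the background. A11 under DoxRA had Mau2 (1.23) and Gsg2 (1.37) higher and Aurkb (-1.53) and Cdca5 (-1.37) lower than its control, beside 20.0%. The DoxRA response of A11 was below that of A2 in Bub1 (-1.53), Esco2 (-1.98), Nipbl (-1.03) and Esco1 (-1.44). It was above that of A2 in Plk1 (2.14), Pttg1 (2.20) and Dscc1 (1.06), where 20.0% of all genes were called. Of 15 subunits of condensin, of SMC5/6 and of SMCHD1, Dox changed 1 (Ncapg2 higher) and DoxRA 6 (Ncapd3, Ncapg, Ncapg2 and Smc6 higher, Ncaph2 and Nsmce1 lower) in A2 at day 9. Beside 22.8% and 48.2% of all genes called, neither count was above the background.

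Over the 98 groups, the genes outside the list whose log2 means followed the meiotic ring genes most closely differed from member to member. Rad21l was followed by Tex16 (r = 0.978), Rad51ap2 (0.978), Terb1 (0.967), a telomere attachment protein of meiosis, and Spdya (0.966). Smc1b was followed by Sycp3 (0.971) and Tex12 (0.961), both of the synaptonemal complex, Slc30a4 (0.956), Acss2 (0.955) and Btbd10 (0.954). For Stag3 these were Mov10l1 (0.953), a helicase of the piRNA pathway, Zcwpw1 (0.942), Dgkd (0.934), Caprin2 (0.931) and Scaper (0.925). For Rec8 they were Ebf4 (0.949), Fam189a2 (0.918), Camk2g (0.918) and Rusc1 (0.918). The values describe 98 groups that share lines and libraries among 10136 genes.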

How the data were processed

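Values came from the authors' deposited table of RPM, in which each library's reads on endogenous genes are scaled to a common total. Per the labels' protocols, 3′ ends were amplified from 1 ng of RNA, and the tools were HTSeq 0.9.1, SAMtools 1.3, TopHat2 2.1.0, Bowtie 1.1.2 and cutadapt 1.9.1 on mm10, per the submitters' processing notes. Columns that sum above the RPM limit, because 3 transgene rows lie outside the scaling, were treated as a signal on the same deposited scale. Of 195 columns 194 matched a label, 1 column of no sample was not used, and 3 misaligned lines were realigned. Whole reads were recovered for 100.0% of values (tolerance 0.05).

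limma 3.58.1 in R 4.3.3 (trend, robust) was fitted to log2(RPM + 1) over 191 PGCLC libraries in 98 groups, for genes with at least 10 RPM in 2 compared libraries, clones of a genotype weighing equally. The fit was tested on simulated data. Alternatives were pseudocounts of 0.5 and 5, no filter, TMM factors, the compared groups alone, the replicate block, each library left out, and edgeR 4.0.16 on recovered reads. All 10 members were looked at in each comparison, though not each of them is named there in the text. Regulators are named where called at day 9, and so are the 5 genes most like each meiotic ring gene, apart from Rik clones and predicted genes. Members and lists were chosen with earlier results of these data known.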

Additional observations from a re-analysis of the deposited data

Results flagged for a closer look

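The responses to 2 treatments at day 9 differed between genotypes by a test of the difference itself (limma, adjusted over all genes). The DoxRA response of A11 (transgene, Stra8-/-) minus that of A2 (transgene) was 2.45 ± 0.61 on the log2 scale for Rec8, -1.24 ± 0.44 for Stag3 and 1.71 ± 0.49 for Rad21 (adjusted p = 0.00151, 0.0310 and 0.00678). Both libraries of each group moved in the direction of their mean for Stag3 and Rad21. Rec8 did so in A11, while in A2 1 of 2 DoxRA libraries lay between the controls. On day 5 Rec8 under DoxRA was higher in A2 (433 and 396 RPM) than in A11 (239 and 122 RPM), with protocols that differ. On that day clone and protocol cannot be told apart, and the difference was not tested. Each genotype is 1 clone here, so clone and genotype cannot be told apart.

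The B2RA response of the Stra8-/- clones minus that of the Zglp1-/- clones was 1.56 for Rec8, 2.98 for Rad21l, 1.03 for Stag3, 1.08 for Smc1b and -1.05 for Rad21 (adjusted p = 0.00939, 2.47e-06, 0.0177, 0.0293 and 0.0319). Both clones of each genotype showed the Rec8 response. With TMM factors the values of Stag3 and Smc1b were 0.91 and 0.95 and no longer passed. The Rad21l value rests on 1 read in the 4 Stra8-/- controls and 1 in the 4 Zglp1-/- B2RA libraries. With edgeR on recovered reads it was 5.17 with an adjusted p of 1.00. Gonadal soma markers summed to 84.8 to 150 RPM in B6 under B2RA and 24.3 to 30.1 RPM in its control, with 6 of 11 at 1 RPM or more under B2RA (Gata4 highest, at 57.0 RPM on average) and Amh at 0 in both, and to 51.2 to 109 RPM in G10 under B2RA and 9.13 to 21.8 RPM in its control. In F6 the sums were 32.6 to 43.8 RPM under B2RA and 7.10 to 12.5 RPM in control. In E5 they were 48.2 to 92.3 RPM under B2RA and 43.1 to 82.2 RPM in control, ranges that overlapped. The part of these markers in the differences was not tested.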

How the results depend on the processing

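Of 4563 values of single members under an alternative, 4361 kept their direction and their side of the threshold, 148 no longer passed, 54 newly passed and none reversed. Of 209 counts of called members at day 9, 189 stayed within 1.5 times the reported one. For BMS against control the count (1) was 2 with no filter, and 0 to 2 with a library left out. For SerumMinusWIN against control (0) it was 1 with no filter, and 0 to 2. For DoxRA against Dox (2) it was 1 with TMM factors and 1 with edgeR, and 1 to 2. For H18 B2RA against BMP2 (5) it was 1 with the compared groups alone, and 0 to 5 (0 without BMP2 replicate 2). With a library left out it ranged from 1 to 4 for Zglp1-/- clones against H18 under BMP2 (2), 3 to 5 for Dox in SerumMinusWIN (6), 3 to 6 for Stra8-/- against Zglp1-/- clones under B2RA (5), and 3 to 5 for A11 DoxRA (5). For these counts the cause was not tested, apart from having fewer libraries or genes in the fit. An arm left with 1 library was assumed to vary like the other groups.

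The labels do not say that a replicate number marks a shared culture or day, and groups have at most 2 numbers, so the numbers were not taken as pairing. Deviations of same-numbered replicates correlated above 0.1 in 26 of 52 pairs of groups, on all 4 days for Dox in SerumMinusWIN and in BMS medium (up to 0.197 and 0.196), and below -0.1 in 3. They are a hint from the data that some replicate sets may be shared. With the replicate block 390 of 394 single values kept their call and 4 newly passed. The count for BMS against control was 2 with the replicate block, and the other 16 counts stayed within 1.5 times.

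Scaling by TMM moved the split of all called genes, higher against lower, from 1589 and 514 to 1029 and 888 in Stra8-/- clones under B2RA, from 1376 and 593 to 844 and 989 for Dox in BMS medium, from 1301 and 634 to 838 and 948 in A11 under DoxRA, and from 662 and 432 to 472 and 566 in Zglp1-/- clones under B2RA. With edgeR on recovered reads Dox at day 9 called 1076 genes higher and 1035 lower in A2, against 2139 in all with limma. At these depths a level under 1 read, worth 0.192 to 1.14 RPM by library, could not be seen.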
